A study of Mus musculus with 67 samples.

Results

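Heat shock genes of the cytosol and the mitochondrion were followed over the day in mouse liver. The members were the 10 rows of the deposited expression table whose gene name was Hspa8, Hspa1b, Hsph1, Dnajb1, Hsp90aa1, Hsp90ab1, Hspb1, Hspd1, Hspe1 or Hsf1, out of 45808 gene rows in all. All mice were C57BL/6 aged 24 weeks, of which 12 weeks were spent on high-fat chow, so the WT livers too are livers on this diet. Each of 4 genotypes was kept either on time-restricted feeding (food only within a daily window) or on feeding ad libitum (food at all times). The genotypes were Bmal1LKO, a liver knockout of the clock activator Bmal1, CryDKO, a knockout of both clock repressors Cry1 and Cry2, ReverbLDKO, a liver knockout of the repressors Rev-erb alpha and Rev-erb beta, and wild type (WT). For Bmal1LKO there were 6 libraries under either feeding, at ZT4, 8, 12, 16, 20 and 24. Zeitgeber time (ZT) counts hours from lights on. CryDKO and ReverbLDKO had 8 per feeding, 1 every 3 h from ZT3 to ZT24. WT had 11 restricted and 12 ad libitum libraries, 2 at each of the times of Bmal1LKO except for 1 restricted library at ZT12. The labels give neither the hours of the feeding window nor the driver of the liver knockouts, and the CryDKO label names no tissue. Whether each library is its own animal is not in the labels, and all p-values therefore reflect the scatter of these libraries alone, which may be technical. Each library is bulk liver RNA, in which fewer cells of a type and less RNA per cell cannot be told apart.

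Heat shock proteins are chaperones that bind unfolded proteins and help them fold or pass them on for degradation. In mammalian cells the transcription factor HSF1, encoded by Hsf1, trimerises under proteotoxic stress and drives the inducible members, and in mouse liver rhythms of body temperature and feeding are known to act on it. HSC70 (Hspa8) and HSP90 beta (Hsp90ab1) are made at all times, while HSP70 (Hspa1b) and HSP90 alpha (Hsp90aa1) are the inducible forms. Hsph1 encodes HSP110, which exchanges the nucleotide of HSP70, and Dnajb1 encodes an HSP40 that delivers clients to HSP70. Hspb1 encodes a small heat shock protein that holds unfolded proteins without ATP. Hspd1 and Hspe1 encode HSP60 and HSP10, the barrel and lid of the mitochondrial chaperonin.

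HSF1 binds inverted repeats of the bases GAA, and the windows that carry such a repeat are shown because the members they precede are compared below. RefSeq windows of the GRCm38.p6 build were matched for 6 of the 10 members, and the bases before each start were searched on both strands for GAANNTTC and TTCNNGAA, each of which is its own reverse complement. The stretch searched was 250 bases for Hspa1b, Hspb1, Hspd1 and Dnajb1, 234 for Hspe1, and 210 and 189 for the 2 windows of Hsph1. At least 1 of these forms was in the windows of Hspa1b, Hspb1 and Hspe1, against 12.84% of 32851 windows of all genes. The forms can overlap to a 13-base run of GAA in alternating directions, which 0.466% of all windows held and of the members' windows that of Hspe1. The capitals mark the matches. Hspa1b lies on chromosome 17 (34956436 to 34959238, minus strand, 1 exon), and its window is chr17:34959239-34959488 on the minus strand. Hspb1 lies on chromosome 5 (135887919 to 135889563, plus strand), and its window is chr5:135887669-135887918 on the plus strand. Hspd1 (chromosome 1, 55077835 to 55088243, minus strand) and Hspe1 (55088132 to 55091307, plus strand) run away from each other, and the Hspe1 element at chr1:55088053-55088082, plus strand, begins 79 bases before the Hspe1 start and lies inside the first bases of the annotated Hspd1 gene on the other strand.
Hspa1b: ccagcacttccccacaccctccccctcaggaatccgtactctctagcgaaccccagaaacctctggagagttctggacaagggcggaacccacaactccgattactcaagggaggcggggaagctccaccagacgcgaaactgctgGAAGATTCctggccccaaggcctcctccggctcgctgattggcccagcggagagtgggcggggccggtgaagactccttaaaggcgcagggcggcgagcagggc
Hspb1: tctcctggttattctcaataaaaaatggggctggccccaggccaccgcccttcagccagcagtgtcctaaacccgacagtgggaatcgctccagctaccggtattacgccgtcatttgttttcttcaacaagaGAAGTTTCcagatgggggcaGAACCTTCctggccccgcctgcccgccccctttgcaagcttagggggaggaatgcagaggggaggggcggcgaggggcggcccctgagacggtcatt
Hspe1: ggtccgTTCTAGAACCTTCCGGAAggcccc
A match is a description and no match says only that these letters are not in the window. The 250 bases before Hspa1a, the neighbour of Hspa1b, were identical at 247 positions.

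Recovered depth was 9.14 to 35.83 M reads per library with a median of 15.59 M, read from the steps of low values (79.3 to 87.3% of them whole within 0.1 reads). The sums of all FPKM (fragments scaled by exon length and library size) ran from 386186 to 1097475. Hepatocyte markers summed to 27265 to 84558 FPKM. Their medians, restricted and ad libitum, were 29877 and 32988 in Bmal1LKO, 60024 and 59618 in CryDKO, 52503 and 44710 in ReverbLDKO and 53491 and 55588 in WT. The part of the lower sums of Bmal1LKO in its differences from WT was not tested. Per 10 percentage points of GC, log2 expression changed by a median of -0.516 in restricted WT libraries and 0.302 in ad libitum WT libraries, and the 6 mutant groups had median slopes between -0.011 and 0.122. Markers of pancreas summed to over 50 FPKM in 8 libraries (76.4 to 2994) and to at most 11.27 in the others. These 8 held all 4 WT libraries of ZT16, restricted CryDKO at ZT9 and ZT24, and ad libitum ReverbLDKO at ZT3 and ZT9. Erythroid markers summed to at most 2926 FPKM, in restricted CryDKO at ZT12, and to 2830 in ad libitum WT at ZT16, replicate 2. The latter library had the highest sum of all FPKM. The targeted genes did not check the deletions, since a gene's value runs over all its exons. Arntl (Bmal1) had a median of 3.18 FPKM in Bmal1LKO and 7.29 in WT, while Cry1 had 10.2 in libraries labelled CryDKO and 10.6 in WT, and Nr1d1 (Rev-erb alpha) had 31.7 in libraries labelled ReverbLDKO and 2.18 in WT. Directions against WT are therefore those of libraries so labelled.

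The cytosolic chaperone genes of WT liver had their highest means at ZT12 to ZT20. Hsph1 had 36.3 and 39.5 FPKM at ZT16 and 32.5 at ZT12 under restricted feeding, against 5.19 and 11.5 at ZT24 and 8.26 and 10.7 at ZT4. Under ad libitum feeding its 2 libraries per time had 14.6 and 8.70 at ZT4, 6.13 and 16.5 at ZT8, 16.5 and 19.8 at ZT12, 20.5 and 17.5 at ZT16, 13.3 and 14.8 at ZT20, and 10.7 and 9.02 at ZT24. The ZT12 and ZT16 libraries of each feeding were above those of ZT24, while single libraries of ZT4 and ZT8 reached the lower night values under ad libitum feeding and the restricted ZT8 libraries lay far apart, at 7.83 and 20.5.
Hsp90aa1, the inducible HSP90, had 30.3 and 35.6 FPKM at ZT16 and 24.4 and 23.2 at ZT20 under restricted feeding, against 5.70 and 12.1 at ZT8. Its lowest, median and highest values were 5.70, 13.6 and 35.6 FPKM in restricted WT and 6.11, 12.2 and 17.95 FPKM in ad libitum WT, so the restricted libraries spread further upwards. Under ad libitum feeding its highest time was ZT20, with 17.95 and 17.4 FPKM, followed by ZT16, with 16.7 and 12.2. Hsp90ab1, the most abundant member per exon length, had 615 and 500.3 FPKM at ZT16 in restricted WT and 516 and 548 in ad libitum WT, against 272 and 282 and 278 and 305 at ZT8. Its 4 ZT16 libraries stood above every other WT library.
Hspa8 had 147 and 164 FPKM at ZT16 in restricted WT, and 35.1 to 55.2 in its other 9 libraries. In ad libitum WT it had 129 and 318 at ZT16 and 41.1 to 77.6 elsewhere, so that the ZT16 libraries of both feedings lay apart from the rest. Hspa1b, the inducible HSP70, was highest at ZT12, with 11.3 FPKM in the restricted library and 9.57 and 11.9 in the ad libitum ones, against 1.16 and 0.729 and 1.19 and 1.51 at ZT24. Its ZT8 replicates differed widely, with 0.762 and 4.02 restricted and 0.702 and 5.22 ad libitum. Dnajb1 had 23.9 and 28.6 FPKM at ZT16 under restricted feeding and 26.0 and 66.6 under ad libitum feeding, against 11.1 and 13.9 and 16.3 and 18.7 at ZT24. All 4 of these ZT16 libraries carried the pancreas markers named above, whose part in the ZT16 values was not tested, while ZT12 and ZT20 libraries did not carry them.

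**Figure D1:**
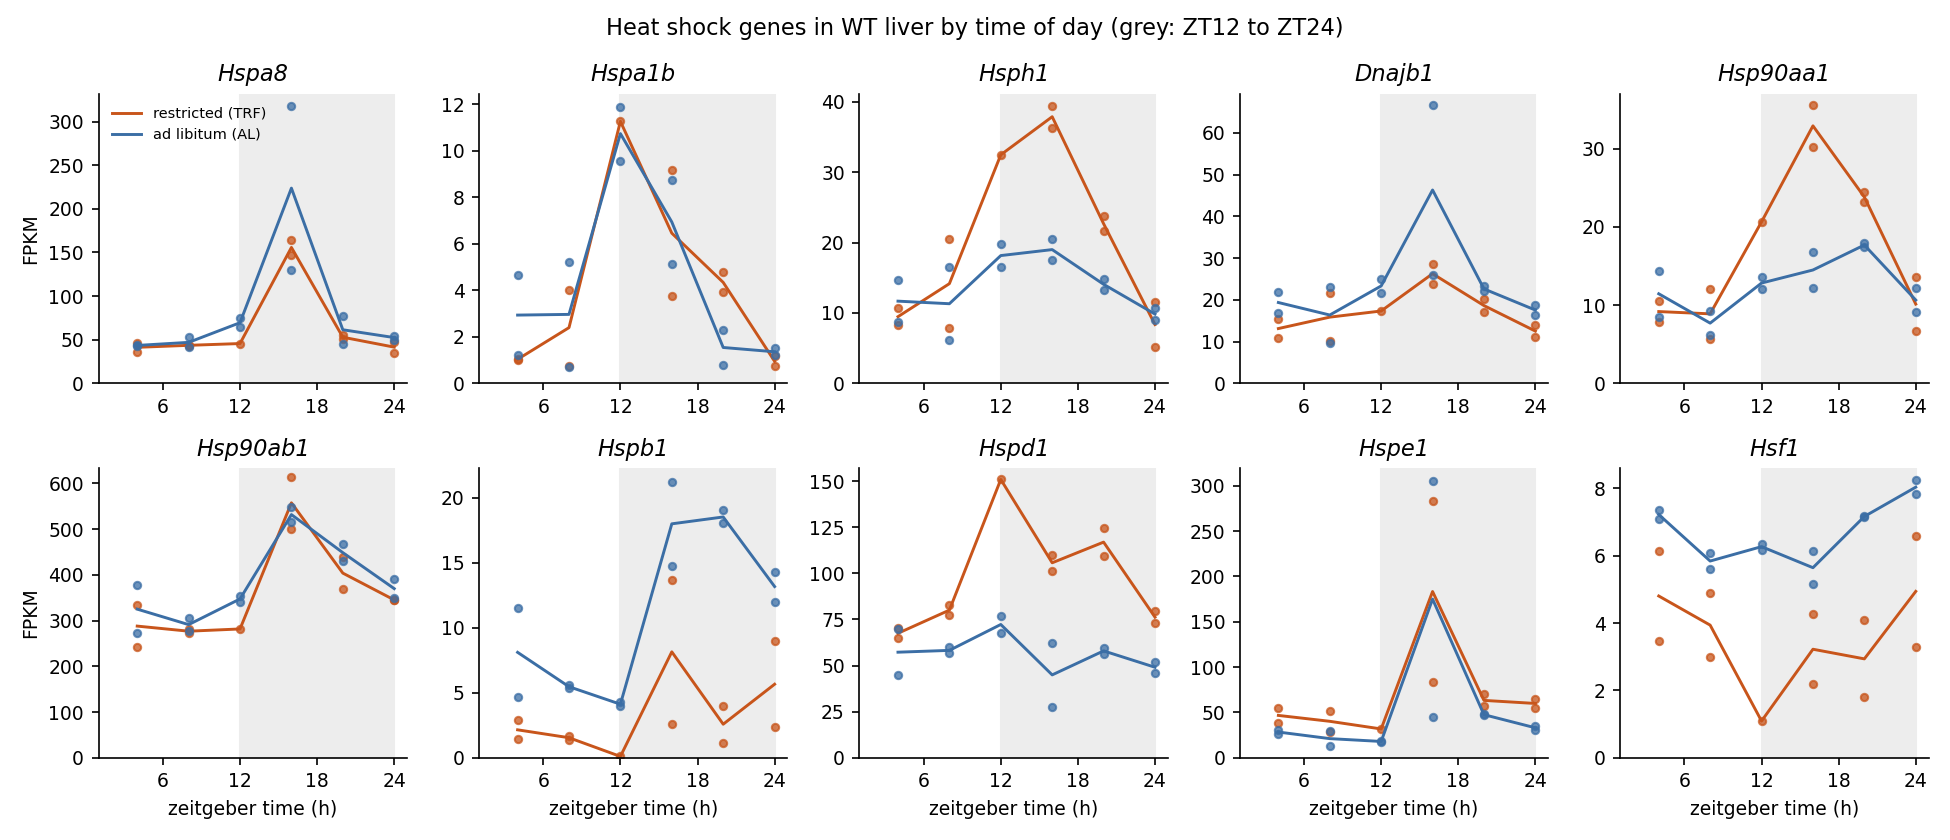
FPKM of the 10 members against zeitgeber time in WT liver, with restricted libraries in orange and ad libitum libraries in blue, lines through the means per time, and the dark hours ZT12 to ZT24 in grey. Hsp90ab1 peaks at ZT16 in both feedings, while Hspd1 lies higher and Hsf1 and Hspb1 lower in most restricted libraries.

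The night maximum of the cytosolic genes was also present in the clock mutants, at 1 library per time. In restricted ReverbLDKO, Hsph1 had 6.19, 3.58, 3.49 and 5.01 FPKM at ZT3, 6, 9 and 12, and 33.1, 18.7, 20.01 and 24.7 at ZT15, 18, 21 and 24. The 4 night libraries were all above the 4 earlier ones. Hspa1b had 0.276 to 1.14 FPKM up to ZT12 in that group and 14.1, 5.01, 6.62 and 5.89 from ZT15 on, and Hspa8 had 12.6 to 27.7 and then 87.3, 63.6, 58.8 and 56.0.
In ad libitum ReverbLDKO the same genes stood out at ZT15 and ZT18 only: Hsph1 had 16.9 and 14.9 FPKM then and 4.64 to 8.77 at the other 6 times. Hspa1b had 4.39 and 2.78 there and 0.502 to 1.07 elsewhere, so that ZT15 and ZT18 were above the rest, and ZT21 was the lowest time of that group.
Restricted CryDKO had 24.6, 27.7, 11.1 and 22.0 FPKM of Hsph1 at ZT15, 18, 21 and 24, and 3.54 to 5.53 before. Hsp90aa1 reached 37.6 FPKM at ZT18 in that group, against 4.84 to 19.5 at its other times. In ad libitum CryDKO, Hsph1 had 15.9 and 22.6 at ZT15 and ZT18 and 3.88 to 9.57 otherwise, with its lowest values at ZT21 and ZT24.
Bmal1LKO livers had 21.5 FPKM of Hsph1 at ZT16 under restricted feeding, against 3.29 at ZT8, and 27.2 at ZT16 under ad libitum feeding, against 3.73 at ZT4. Hspa1b reached 21.5 FPKM at ZT16 in ad libitum Bmal1LKO, its highest value of all 67 libraries, and had 0.717 to 3.42 at the other 5 times. Across the 8 groups, the time of the highest mean fell between ZT15 and ZT21 in all 8 for Hspa8, Hsph1 and Dnajb1, in 7 for Hsp90aa1 and Hsp90ab1 and in 6 for Hspa1b. None of the ZT15 to ZT21 libraries of the mutants summed above 11.27 FPKM of pancreas markers.

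**Figure D2:**
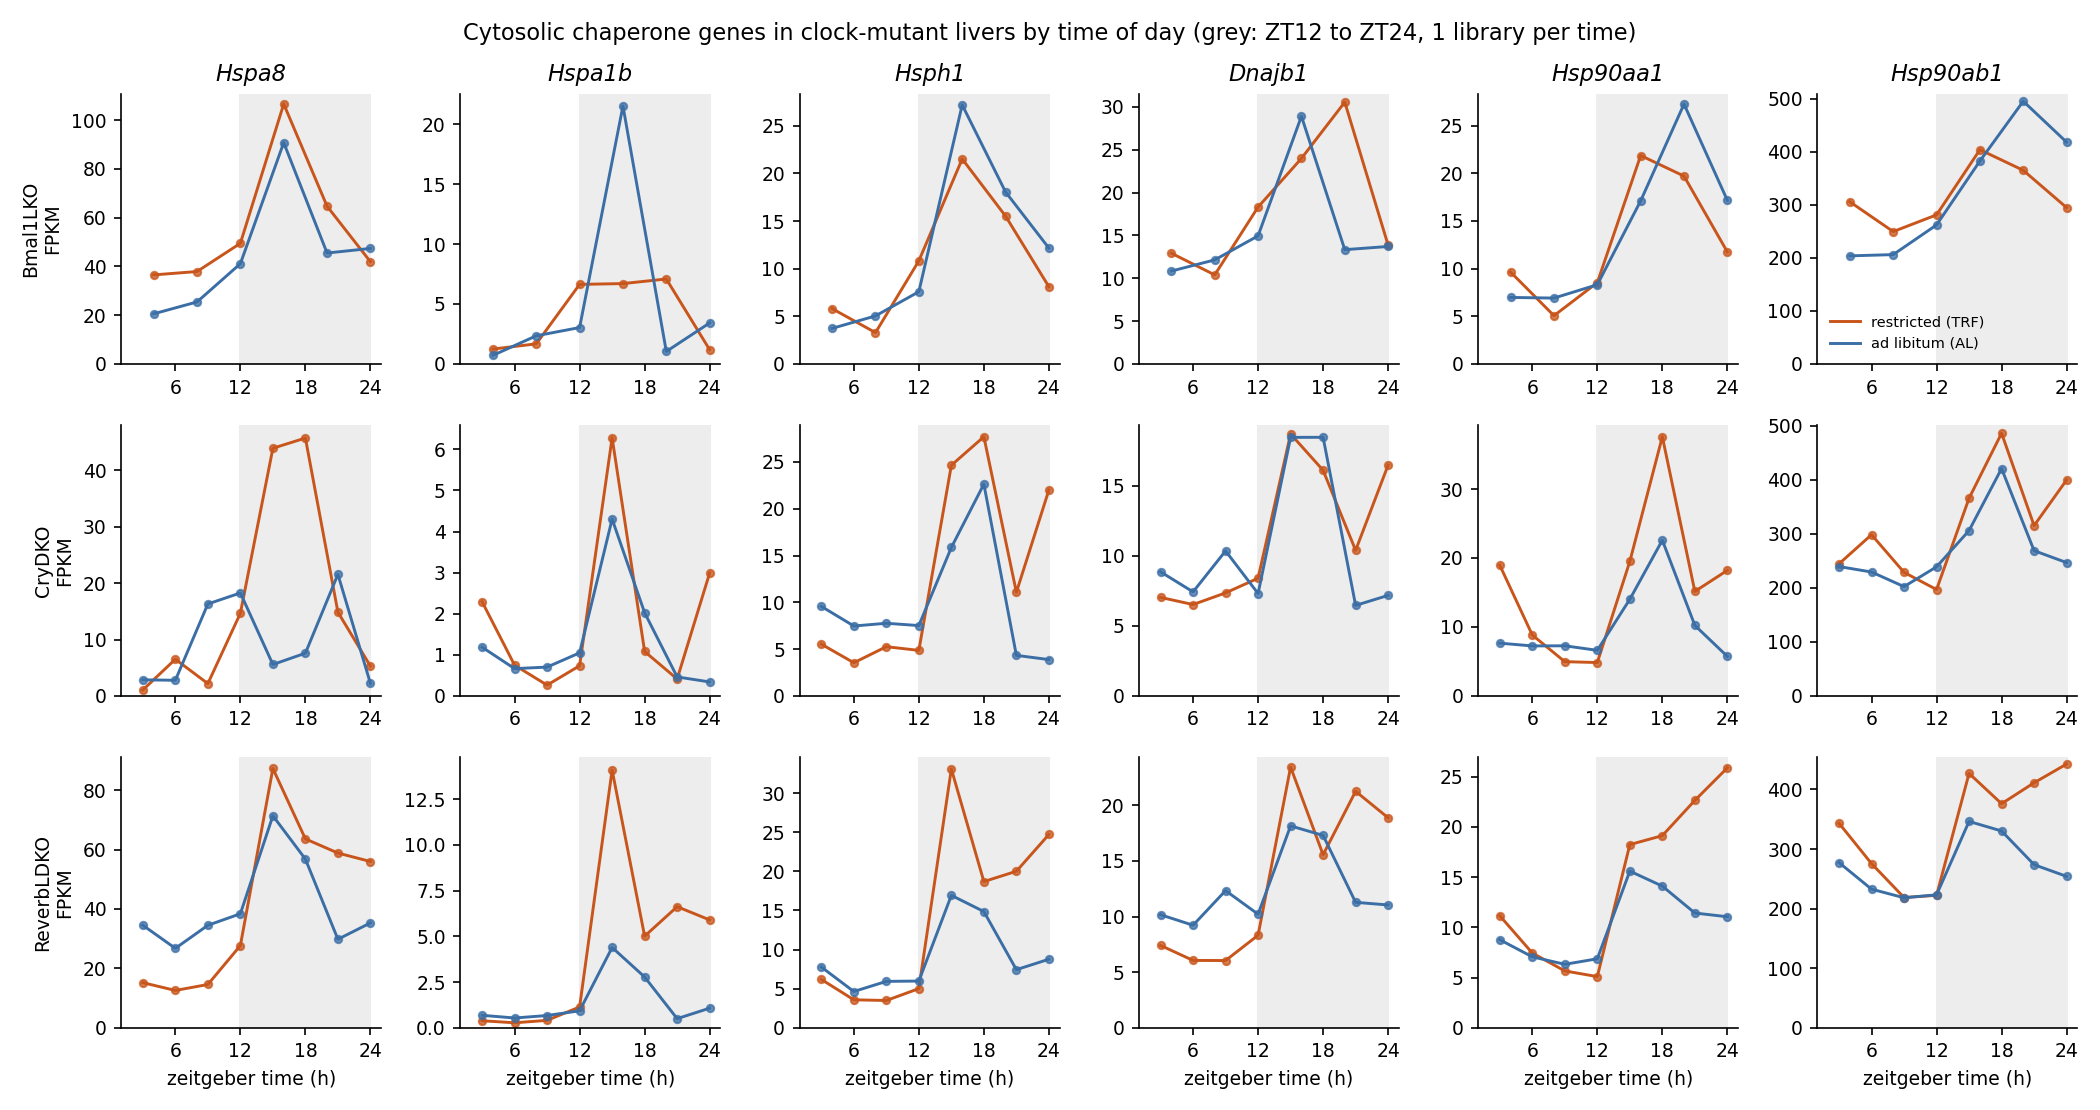
FPKM of the 6 cytosolic chaperone genes against zeitgeber time in Bmal1LKO, CryDKO and ReverbLDKO, with 1 library per time, restricted feeding in orange and ad libitum feeding in blue. The libraries after ZT12 are the high ones in most panels; Hspa1b of ad libitum Bmal1LKO reaches 21.5 at ZT16.

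Rhythms were tested by limma with a cosine curve of 24 h on log2(FPKM + 1), a scale that understates changes of low genes. The amplitude is the log2 height of the fitted peak over the curve's mean, and a gene passed at a Benjamini-Hochberg adjusted p under 0.05 over 9957 genes. In restricted WT 6 of 10 members passed, against 20% of all genes: Hspa1b (amplitude 1.20 ± 0.32 SE), Hsph1 (1.13 ± 0.22), Hsp90aa1 (0.99 ± 0.16), Hsp90ab1 (0.43 ± 0.10), Hspd1 (0.44 ± 0.10) and Hsf1 (0.46 ± 0.12). In ad libitum WT 6 passed, against 29.7%, namely Hspa8 (0.86 ± 0.25), Hspa1b (1.05 ± 0.30), Dnajb1 (0.52 ± 0.16), Hsp90ab1 (0.39 ± 0.10), Hspb1 (0.97 ± 0.24) and Hspe1 (0.95 ± 0.24). Of the cytosolic genes, 2 passed in both feedings, Hspa1b and Hsp90ab1.
In restricted ReverbLDKO 6 passed, against 3.95% of all genes, and they were the 6 cytosolic genes, with amplitudes from 0.48 ± 0.12 for Hsp90ab1 to 1.62 ± 0.37 for Hspa1b. In restricted CryDKO 5 passed, against 7.23%: Hspa8, Hsph1, Hsp90aa1, Hsp90ab1 and Hspb1. No member passed limma in restricted Bmal1LKO (against 0.512%), ad libitum Bmal1LKO (0.0301%), ad libitum CryDKO (0.0502%) or ad libitum ReverbLDKO (0.0301%), where 5, 5, 4 and 1 members had an unadjusted p under 0.05.
The fitted peaks of the 6 cytosolic genes lay between ZT12.7 and ZT21.1 in all 8 groups, passing or not. Their median peak was ZT15.5 in restricted WT and ZT16.15 in ad libitum WT, ZT19.3 in both restricted CryDKO and restricted ReverbLDKO, ZT15.2 in ad libitum CryDKO and ZT17.2 in ad libitum ReverbLDKO. In Bmal1LKO it was ZT17.8 restricted and ZT17.75 ad libitum. The median amplitude of these genes was 1.202 in restricted and 0.498 in ad libitum ReverbLDKO, and 0.778 and 0.912 in Bmal1LKO. Of all 10 members, 10 had the larger amplitude under restriction in ReverbLDKO, 9 in CryDKO, 3 in Bmal1LKO and 6 in WT. Over all genes the median amplitude was larger under restriction in ReverbLDKO (0.174 against 0.102), CryDKO (0.196 against 0.113) and Bmal1LKO (0.198 against 0.158). In WT it was smaller (0.241 against 0.262). How many of all genes had the larger amplitude under restriction was not counted. The members' own median in CryDKO was 0.519 restricted and 0.52 ad libitum. The difference of rhythms between feedings itself passed for 0 members in ReverbLDKO (0% of all genes, 0 members at an unadjusted p under 0.05), in Bmal1LKO (0%, 0 members) and in WT (0%, 2 members, Hspd1 and Hsp90aa1), and for 0 in CryDKO (1.31%, 4 members). Rhythms against WT likewise passed for 0 members in ReverbLDKO (2.67% of all genes, 5 at an unadjusted p under 0.05, Hsph1 having an adjusted p of 0.0517), Bmal1LKO (1.02%, 2) and CryDKO (2.97%, 0).
Single libraries decided some of these calls. That of Hspa1b ended without any 1 of 2 libraries in restricted WT and any 1 of 2 in ad libitum WT. In restricted ReverbLDKO the call of Hspa1b ended without any 1 of 3, that of Hspa8 without any 1 of 3 and that of Hsp90ab1 without any 1 of 5. The Hspb1 call in restricted CryDKO ended without any 1 of 4. In ad libitum WT, without replicate 2 of ZT16, Hspa8 had an amplitude of 0.55 (adjusted p = 0.22, limma) and Dnajb1 one of 0.29 (0.32), and in restricted WT, without the single ZT12 library, Hsf1 had 0.30 (0.16). That library is a replicate 2, and replicate 2 of restricted WT was below replicate 1 at 5 of 5 other times for both Hsf1 and Hspb1, so the low ZT12 values of these genes and the replicate number cannot be told apart. Without the 8 libraries with pancreas markers, restricted WT had 6 members that passed, against 42.6% of all genes, with Hsp90ab1 lost and Hspb1 gained. Ad libitum WT then had 3, against 30.7%, with Hspa8 (0.37), Hspa1b (0.98), Dnajb1 (0.27) and Hsp90ab1 (0.30) lost and Hspd1 (0.24) gained. This fit has no WT library of ZT16, where Hspa8, Dnajb1 and Hsp90ab1 had their highest ad libitum means. It therefore cannot tell the pancreas RNA from the missing time, in WT or in the tests against WT below. In restricted CryDKO 4 passed without the 8 libraries, against 8.9% of all genes, with Hsp90ab1 lost (0.40, adjusted p = 0.113, limma). That call also ended without any 1 of 43 libraries. In restricted ReverbLDKO the same 6 genes passed, against 6.98%. Without these 8 libraries the rhythm differed from WT for Hspd1 in Bmal1LKO (adjusted p = 0.00281), for Hspa8 (0.0183) and Hspd1 (0.00681) in CryDKO, and for Hsph1 (0.0249), Hspd1 (0.00357) and Hsf1 (0.0156) in ReverbLDKO, so the counts of 0 above rest on them. In that fit 22.2% of all genes differed in Bmal1LKO, 26.2% in CryDKO and 27.2% in ReverbLDKO, and the members' 1, 2 and 3 of 10 are near or below those shares. The Hspa8 difference in CryDKO is that of Hspa8 without its near-identical copy Gm15459, described below. With the copy added, over all 67 libraries, the rhythm in CryDKO did not pass against WT (adjusted p = 0.675, limma). The sum was not fitted without the 8 libraries.

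**Figure D3:**
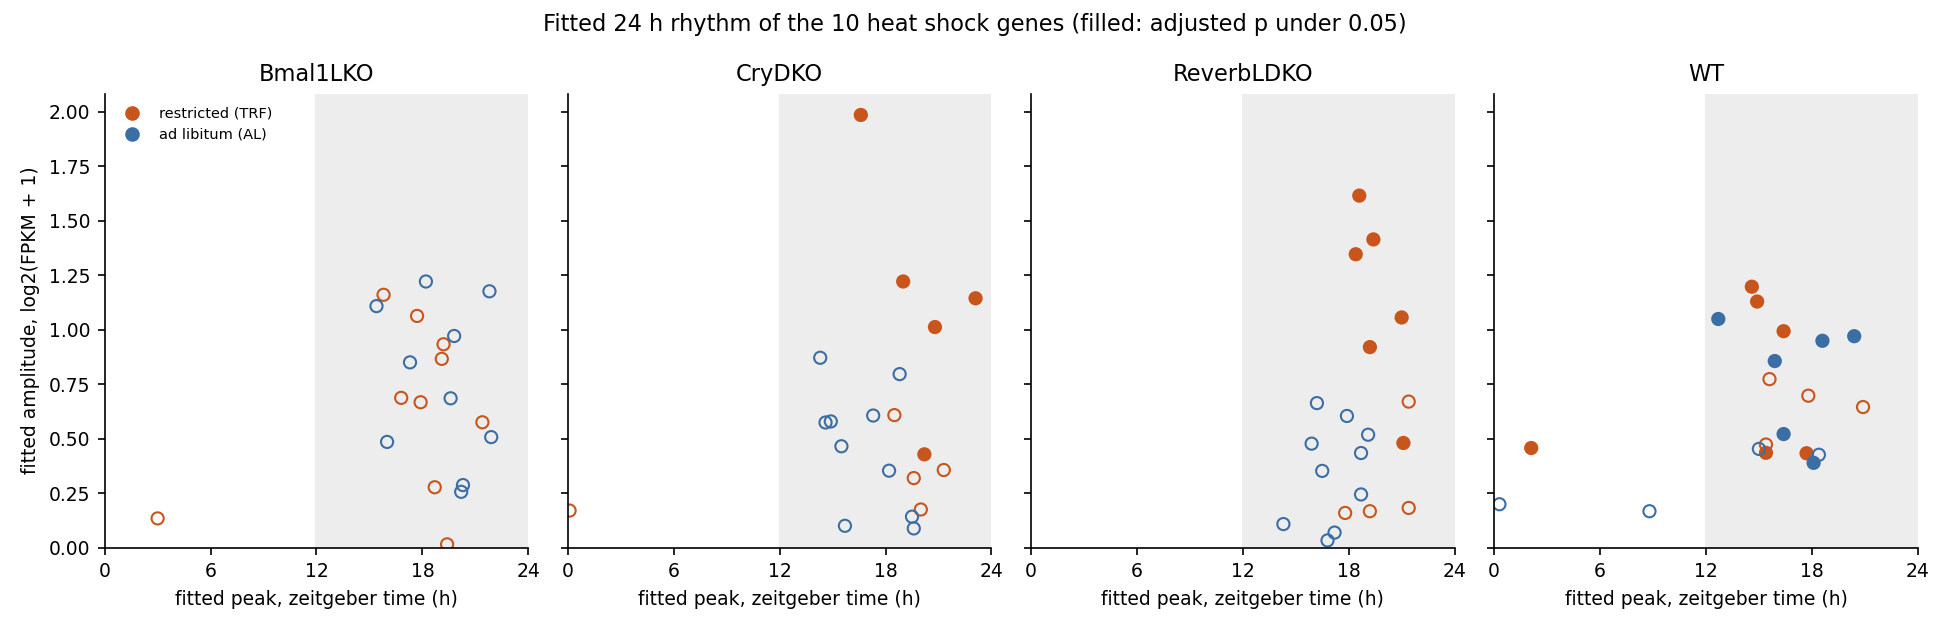
Fitted peak time (zeitgeber hours, horizontal) and amplitude (log2, vertical) of the 10 members in each genotype, with restricted feeding in orange, ad libitum in blue, and filled points for members that passed limma. The filled points of the cytosolic genes lie between ZT12.7 and ZT21.1, and the highest, Hspa8 of restricted CryDKO, has an amplitude of 1.99.

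The mitochondrial pair, the small heat shock gene Hspb1 and Hsf1 differed in their courses. Hspb1 shared the night maximum of the cytosolic genes, with its highest mean at ZT15 to ZT21 in 8 of 8 groups. That held in 5 groups for Hspe1 and in 4 each for Hspd1 and Hsf1. In restricted WT Hspd1 was highest in the single ZT12 library, at 151 FPKM, against 64.8 to 124 in the other 10, and in ad libitum WT it had 27.5 to 77.0 with its 2 ZT12 libraries at 77.0 and 67.5. Its highest mean over time was 1.14 to 2.23 times its lowest in the 8 groups, against 1.93 to 9.47 times for Hsph1. Hspe1 had 283 FPKM in restricted and 305 in ad libitum WT at ZT16, replicate 2, against 28.4 to 83.8 and 13.2 to 47.8 in the other libraries of those groups, while Hspd1 in these libraries had 110.1 and 27.5. The barrel and lid genes of the chaperonin did not move together there. The ad libitum library had the lowest slope of expression against gene length of all 67 (-0.53 log2 per doubling, against -0.231 to 0.252 in the others), and the restricted one the lowest GC slope (-1.049). Hspe1 has 1474 exon bases, and the ad libitum library also held the highest Hspa8 (318) and Dnajb1 (66.6) values; the part of these slopes was not tested. The 2 genes share 112 exon bases on opposite strands, and without a stated strand setting of the counting those reads cannot be told apart.
Hspb1 was lowest around ZT9 to ZT12 and highest at ZT15 to ZT20 in all 8 groups. It had 0.107 FPKM in restricted WT at ZT12, against 13.7 and 2.59 at ZT16, and in ad libitum WT 3.97 and 4.28 at ZT12, against 18.03 and 19.02 at ZT20. Hsf1 had its highest WT mean at ZT24, with 6.59 and 3.29 FPKM restricted and 8.24 and 7.82 ad libitum, when the inducible genes were low. Its fitted peak was ZT2.1 in restricted WT and ZT0.3, not passing, in ad libitum WT.

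Between the feedings, the levels of 5 of 10 members differed in WT liver, against 64% of all genes tested, so the share is no higher than the background. The mitochondrial chaperonin genes Hspd1 and Hspe1 rose under restriction (28.6% of all genes rose) and Hspb1, Hsf1 and Dnajb1 fell (35.4% fell). Hspd1 had 64.8, 82.8 and 151 FPKM (lowest, median and highest) in restricted WT and 27.5, 58.1 and 77.0 in ad libitum WT. All but 3 restricted libraries were above the highest ad libitum one. Its level was 0.75 ± 0.10 higher on the log2 scale (adjusted p = 1.17e-08, limma) and higher at 6 of 6 times.
Hspe1 had 28.4, 55.3 and 283 FPKM in restricted and 13.2, 31.0 and 305 in ad libitum WT, with overlapping ranges, and was 0.75 ± 0.25 higher (adjusted p = 0.00819, limma), at 6 of 6 times. Hspb1 had 0.107, 2.34 and 13.7 FPKM in restricted and 3.97, 11.8 and 21.2 in ad libitum WT, with 3 restricted libraries inside the ad libitum range. It fell by 1.61 ± 0.25 (adjusted p = 3.65e-07, limma). Hsf1 had 1.09, 3.46 and 6.59 FPKM in restricted and 5.15, 6.72 and 8.24 in ad libitum WT, with 2 restricted libraries in the ad libitum range, and fell by 0.83 ± 0.12 (2.71e-08). Dnajb1, at 10.1, 17.0 and 28.6 against 9.59, 21.9 and 66.6, fell by 0.37 ± 0.17 (0.0481), a call that ended when any 1 of 35 of the 67 libraries was left out. Hspb1, Hsf1 and Dnajb1 were lower at 6 of 6 times. The other 5 members did not pass: Hsph1 differed by 0.36 ± 0.21, Hsp90aa1 by 0.32 ± 0.17, Hspa8 by -0.21 ± 0.26, Hsp90ab1 by -0.09 ± 0.10 and Hspa1b by -0.08 ± 0.31.
The WT feedings also differed in GC slope, whose part in the directions was examined by a correction. The genes that fell have exons of 61.72% (Hspb1), 53.43% (Hsf1) and 52.7% GC (Dnajb1), and those that rose 46.84% (Hspd1) and 45.54% (Hspe1), while Hspa1b, which did not pass, has 58.1%. After removal of each library's trend with GC content and gene length, Hspd1 (0.62 ± 0.14, adjusted p = 0.00028), Hspe1 (0.59 ± 0.16, 0.00312) and Hsf1 (-0.44 ± 0.09, 6.53e-05) still passed limma. Hspb1 (-0.19 ± 0.19, adjusted p = 0.452) and Dnajb1 (-0.04, 0.862) did not, and Hspa1b turned to 0.83 ± 0.34 and passed (0.0458). On these corrected values 38.6% of 9581 genes passed.

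**Figure D4:**
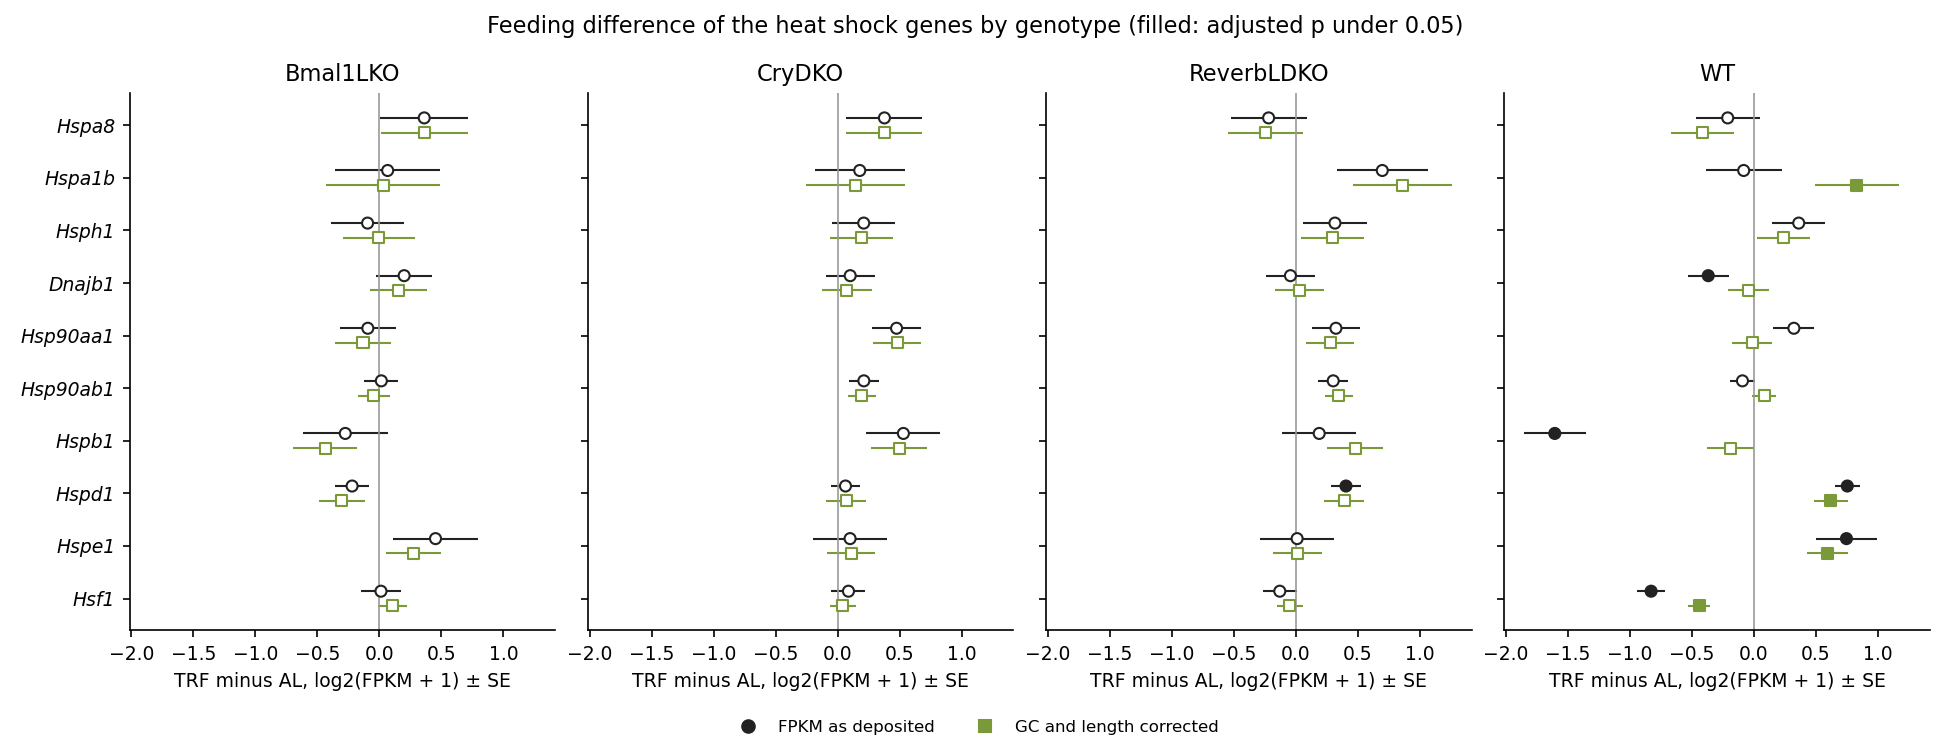
Restricted minus ad libitum level (log2, with SE bars) of the 10 members in each genotype, as circles for deposited values and squares after the GC and length correction, filled where limma passed. In WT the circles of Hspb1 (-1.61) and Hsf1 (-0.83) lie left of 0 and those of Hspd1 and Hspe1 (0.75 each) right of it, while in the mutants the one filled circle is Hspd1 of ReverbLDKO (0.41).

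Hspd1 was the only member that passed for feeding in a mutant. In ReverbLDKO it had 87.1, 103 and 121 FPKM (lowest, median and highest) under restriction and 71.3, 76.4 and 83.4 under ad libitum feeding. The groups did not overlap, restriction was higher at 8 of 8 times, and the level was 0.41 ± 0.12 higher (adjusted p = 0.0459, limma), against 3.32% of all genes that passed, 1.08% higher and 2.24% lower. That call ended without any 1 of 31 of the 67 libraries and after the GC and length correction (0.39, adjusted p = 0.157). No member passed limma in Bmal1LKO (0.0402% of all genes, 0 members at an unadjusted p under 0.05) or CryDKO (0.0201%, 1 member, Hsp90aa1). In Bmal1LKO Hspd1 was lower under restriction at 6 of 6 times, at 52.9, 57.4 and 60.1 FPKM against 57.7, 62.4 and 92.5, without passing (-0.22 ± 0.14).
The feeding effect differed between the 4 genotypes for 3 members, against 47.1% of all genes: Hspd1 (adjusted p = 2.36e-05, limma), Hspb1 (3.84e-05) and Hsf1 (6.03e-05). Hspb1 differed by -0.28 ± 0.35 in Bmal1LKO, 0.53 ± 0.30 in CryDKO and 0.19 ± 0.30 in ReverbLDKO, beside its fall in WT. These 3 differences passed after the GC and length correction as well, Hspb1 at an adjusted p of 0.042.

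The level over the day differed from WT for most members in CryDKO and ReverbLDKO and for few in Bmal1LKO. In CryDKO 9 of 10 members passed, against 65.4% of all genes, with 7 lower (31% of all genes) and 2 higher (34.4%). In ReverbLDKO 8 passed, against 57.8%, with 7 lower (27.7%) and 1 higher (30.1%). In Bmal1LKO 3 passed, all lower, against 27.3% of all genes, 7.66% lower and 19.7% higher. The members' median difference was -0.63 in CryDKO, -0.604 in ReverbLDKO and -0.225 in Bmal1LKO, where the median of all genes tested was 0.015, 0.008 and 0.071. The 3 comparisons share the WT libraries.
Dnajb1 had 6.46, 8.63 and 18.7 FPKM (lowest, median and highest) in CryDKO, 6.05, 11.2 and 23.4 in ReverbLDKO and 9.59, 20.2 and 66.6 in WT. It fell by 0.86 ± 0.13 in CryDKO and by 0.64 ± 0.13 in ReverbLDKO, with overlapping ranges. Hspe1 had 15.8, 22.1 and 31.3 FPKM in CryDKO, 15.7, 21.9 and 30.4 in ReverbLDKO and 13.2, 45.2 and 305 in WT, and fell by 1.00 ± 0.19 and 1.01 ± 0.19. Without the 8 libraries with pancreas markers these differences were -0.64 ± 0.13 and -0.70 ± 0.13, and passed. In CryDKO and ReverbLDKO its values stayed within 15.7 to 31.3 FPKM, while the WT range held both lower and far higher libraries. Hspd1, its partner, was 0.29 ± 0.08 higher in CryDKO and 0.31 ± 0.08 higher in ReverbLDKO.
Hspb1 had 0.517, 2.06 and 3.66 FPKM in ReverbLDKO, against 0.107, 4.69 and 21.2 in WT, and fell by 1.04 ± 0.20. In CryDKO it fell by 0.60 ± 0.20, which without the 8 libraries with pancreas markers was -0.24 (adjusted p = 0.276, limma). Hsph1 fell in all 3 mutants, by 0.61 ± 0.18 in Bmal1LKO, 0.66 ± 0.17 in CryDKO and 0.64 ± 0.17 in ReverbLDKO, and Hsp90ab1 by 0.23 ± 0.09, 0.37 ± 0.08 and 0.30 ± 0.08. Hspa1b fell by 0.88 ± 0.24 in CryDKO and by 0.57 ± 0.24 in ReverbLDKO, where the call (adjusted p = 0.039, limma) ended when reads of Hspa1a were added (0.0521). Hsp90aa1 did not pass in any mutant, at -0.17 ± 0.14, -0.26 ± 0.13 and -0.28 ± 0.13 in Bmal1LKO, CryDKO and ReverbLDKO. Hsf1 was 0.41 ± 0.09 higher in CryDKO and did not pass in Bmal1LKO (0.18 ± 0.10) or ReverbLDKO (0.002 ± 0.089).
In Bmal1LKO the fall of Hspd1 (-0.22 ± 0.09, adjusted p = 0.0481) ended without any 1 of 52 of the 67 libraries, but without the 8 libraries with pancreas markers it was -0.34 ± 0.06 (adjusted p = 1.96e-05, limma). The fall of Hsp90ab1 ended without those 8 (-0.14, 0.186).

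Hspa8 had the largest difference of the members in CryDKO, where a near-identical copy also had reads. It had 1.06, 7.04 and 45.7 FPKM (lowest, median and highest) in CryDKO, 12.6, 34.9 and 87.3 in ReverbLDKO and 35.1, 49.999 and 318 in WT. It fell by 2.76 ± 0.20 in CryDKO (adjusted p = 5.59e-16, limma) and by 0.77 ± 0.20 in ReverbLDKO (0.0013). The processed pseudogene Gm15459, named here after its values were seen, shares 45.32% of the 50-base stretches of Hspa8. It had 0.033 to 64.3 FPKM in CryDKO and 0.05 to 2.77 in the other 51 libraries. Weighted by exon length, it held 78.2 to 82.0% of the sum of both genes in 8 CryDKO libraries (3 restricted, 5 ad libitum), 23.6 to 27.9% in 7 (5 restricted, 2 ad libitum) and 0.07% in the ad libitum ZT21 library. In the 51 other libraries that share was 0.08 to 0.54%. Values per gene do not tell Hspa8 reads counted at the copy from transcripts of the copy. The 3 levels are far apart, and the low Hspa8 values of CryDKO, such as 1.06 at ZT3 restricted and 2.22 at ZT24 ad libitum, come from libraries at the first of them.
With the copy added, Hspa8 was 1.59 ± 0.15 lower in CryDKO (adjusted p = 4.51e-12, limma), 0.77 ± 0.15 lower in ReverbLDKO (5.2e-05) and 0.43 ± 0.17 lower in Bmal1LKO (0.0494), where Hspa8 alone had not passed (0.144). Only Gm15459 was added. Hspa8 also shares 28.47% of its 50-base stretches with Gm8355, which had at most 0.506 FPKM, 22.45% with Gm6210 and 14.02% with Gm7232. Reads counted at these other copies are not in the sum. The summed rhythm passed in restricted WT (amplitude 0.77 ± 0.20, adjusted p = 0.0132), and in restricted CryDKO it was 1.41 ± 0.23, against 1.99 ± 0.31 for Hspa8 alone. In restricted WT, Hspa8 alone had an amplitude of 0.21 ± 0.30 (adjusted p = 0.836, limma) without the libraries with pancreas markers, among them both ZT16 libraries. Other members have copies too. Hspa1b shares 62.3% of its 50-base stretches with Hspa1a, which had a median of 0.205 FPKM in WT, and Hsp90aa1, Hspb1 and Hspd1 share 58.5, 51.7 and 44.8% with other genes, mostly pseudogenes. Their values are uncertain to the extent that the counting divided such reads. Hsph1 and Hsf1 share none.

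**Figure D5:**
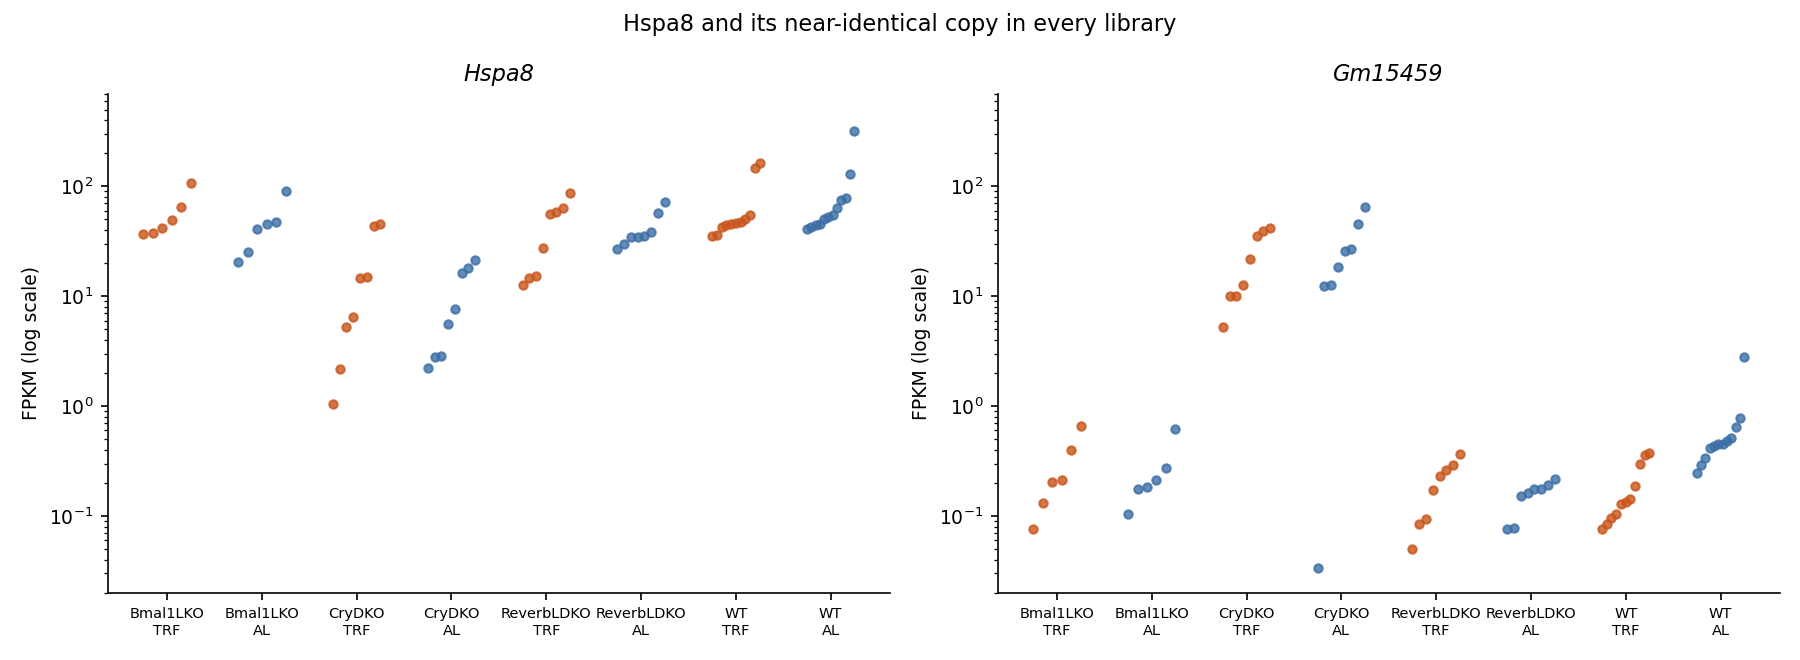
FPKM (log axis) of Hspa8 and of its copy Gm15459 in each library, by group. Gm15459 rises above 5 FPKM in 15 of the 16 CryDKO libraries and stays at or below 2.77 in all libraries of the other groups, while Hspa8 falls to 1.06 in CryDKO.

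Genes that work with these chaperones passed in both directions with feeding in WT, and the cytosolic ones that passed were mostly lower in CryDKO and ReverbLDKO. Of 29 co-chaperones and kin, 26 were tested. In WT 22 of them passed for feeding, 11 up and 11 down, against 64% of all genes, with a median of -0.13 beside -0.03 over all genes. On the deposited values the greatest were falls, in Hspbp1, a nucleotide exchange factor of HSP70 (-2.04 ± 0.17), Cdc37, which brings kinases to HSP90 (-1.29 ± 0.13), the polyubiquitin gene Ubb (-1.20 ± 0.17) and Stub1, a ubiquitin ligase for chaperone clients (-1.14 ± 0.13). Values of these single genes after the GC and length correction are not given here. After the GC and length correction 11 of 26 passed, 7 up and 4 down, against 38.6% of all genes. The median of the 26 was then 0.064, beside 0.032 over all genes. Of the 8 subunits of the cytosolic chaperonin TRiC, 5 passed and all 5 rose, against 64% of all genes that passed and 28.6% that rose. Among them Cct4 rose by 0.59 ± 0.16 and Cct8 by 0.56 ± 0.07. After the correction 2 subunits were up and 1 down, against 38.6% of all genes that passed. Of 10 mitochondrial folding and protease genes 2 rose (28.6% of all genes), among them Hspa9, the mitochondrial HSP70 (0.56 ± 0.09). Another 5 fell (35.4%), among them the proteases Clpp (-1.57 ± 0.19) and Lonp1 (-0.91 ± 0.15). These single-gene values are from the deposited FPKM. After the correction 1 of the 10 was up and 2 down, against 38.6% of all genes that passed.
In CryDKO 16 of 26 co-chaperones passed, all lower, against 31% of all genes lower, with a median of -0.294 beside 0.015 over all genes. They included Ahsa1, which stimulates the HSP90 ATPase (-0.82 ± 0.12), and Hsbp1, a binding protein of HSF1 (-0.77 ± 0.11). In ReverbLDKO 16 passed, 14 of them lower, against 27.7%, with Ahsa1 at -0.64 ± 0.12. TRiC subunits were lower in 8 of 8 cases in CryDKO, against 31% of all genes, and in 7 of 8 in ReverbLDKO, against 27.7%. Cct3 differed by -0.56 ± 0.12 in CryDKO and -0.63 ± 0.12 in ReverbLDKO. Of the 10 mitochondrial genes 2 were higher (34.4% of all genes) and 4 lower (31%) in CryDKO, with a median of -0.08. In ReverbLDKO 3 were higher (30.1%) and 1 lower (27.7%), with a median of -0.021. In Bmal1LKO 8 of 26 co-chaperones passed, near the 27.3% of all genes, with 2 higher (19.7% of all genes) and 6 lower (7.66%). The protease gene Clpx was 1.09 ± 0.11 higher in Bmal1LKO and 1.02 ± 0.10 higher in ReverbLDKO.
Rhythms passed limma for 14 of 26 co-chaperones in restricted WT, against 20% of all genes, led by Hspa4l, an HSP110 relative (amplitude 0.92, peak ZT16.4), Chordc1 (0.85, ZT15.7) and the HSP40 gene Dnaja1 (0.84, ZT14.8). In ad libitum WT 11 passed, against 29.7%, in restricted CryDKO 6, against 7.23%, and in restricted ReverbLDKO 6, against 3.95%, with Bag3, a partner of HSP70 in autophagy, at 0.93 (ZT18.4). Bag3 and Dnajb4 were the 2 whose rhythm differed in ReverbLDKO from WT (adjusted p = 0.0446 and 0.0472, limma). Clpx had an amplitude of 1.38 in restricted and 1.36 in ad libitum WT with a peak at ZT22.4, and its rhythm differed from WT in all 3 mutants (1.78e-08 in ReverbLDKO).

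Levels and likeness set the members apart from each other. By median FPKM in restricted WT, the order was Hsp90ab1 (345), Hspd1 (82.8), Hspe1 (55.3), Hspa8 (46.5), Hsph1 (20.5), Dnajb1 (17.0), Hsp90aa1 (13.6), Hspa1b (3.75), Hsf1 (3.46) and Hspb1 (2.34 FPKM). In ad libitum WT it was Hsp90ab1 (366), Hspd1 (58.1), Hspa8 (53.7), Hspe1 (31.0), Dnajb1 (21.9), Hsph1 (14.7), Hsp90aa1 (12.2), Hspb1 (11.8), Hsf1 (6.72) and Hspa1b (3.47 FPKM). Apart from Hsp90ab1 and Hspd1, the ranges of neighbours overlapped in both orders.
Pearson correlations of log2(FPKM + 1) over the 67 libraries, after each group's mean was removed, describe which genes varied alike. The points share library, depth and base composition. Among members the closest pairs were Hsph1 with Dnajb1 (0.871), Hsph1 with Hsp90aa1 (0.863) and Hsp90aa1 with Hsp90ab1 (0.847). Hspa1b was most like Bag3 (0.829) and Dnajb4 (0.822), Hsp90aa1 like Hspa4l (0.934), Hsp90ab1 like Stip1, which links HSP70 to HSP90 (0.862), and Hsph1 like P4ha1, a collagen prolyl hydroxylase (0.928). Hspd1 was most like Hspa9 (0.811), while Hspe1 was most like Med21 (0.966) and Higd1a (0.948) and not among the 5 genes closest to Hspd1. Hspa8 reached 0.694, with Dnaja1, Hspb1 0.821, with Creld1, and Hsf1 0.834, with Tmem115. Hspa8 was taken here without its copy Gm15459, whose share differed widely among the CryDKO libraries. The part of that share in its correlations was not tested.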

How the data were processed

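Polyadenylated liver RNA was sequenced from stranded libraries, per the labels' protocols. The authors deposited 1 FPKM value per gene and library, and STAR, featureCounts, DESeq2 and the GRCm38 build are named in the submitters' processing notes, with versions and strand setting not given in the sources used here. Whole reads were recovered only in part (79.3 to 87.3% of low values of up to 20 reads were whole within 0.1), so no count test was run. From the deposited FPKM, log2(FPKM + 1) was fitted with limma 3.58.1 in R 4.3.3 over all 67 libraries, with genotype, feeding and a 24 h cosine per group, for the 9957 genes whose mean reached 1 FPKM. Benjamini-Hochberg adjusted p under 0.05 passed. GC content and exon length came from the GENCODE annotation of GRCm38 (9581 tested genes). Python 3.11.15, pandas 2.3.3, numpy 2.4.6 and matplotlib 3.10.9 did the rest. The fits were tested on simulated data. A printed level is FPKM, and a difference or amplitude is log2.

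The members and lists were chosen with earlier results of these data known. Besides the members, the text names up to 4 passing genes of each list with the greatest absolute difference or amplitude, some of the 5 genes most like each member (mean of at least 5 FPKM), the time markers Arntl, Per2 and Cirbp, the targeted genes, and further list genes and Gm15459 after their values were seen. Alternatives were a pseudocount of 0.1, no filter, median-of-ratios scaling, the GC and length correction, a fit of only the groups compared, a replicate block and leaving out each library. Chosen after seeing the data were leaving out both WT ZT16 replicate 2 libraries, leaving out the 8 libraries with pancreas markers, and adding the near-identical copies.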

Additional observations from a re-analysis of the deposited data

Results flagged for a closer look

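In 7 of 60 sets of values (a member in a group of 6 or 8 libraries) 1 library stood far from the others by Dixon's criterion. The criterion marks about 1 in 20 sets of independent draws from a normal distribution. These sets hold FPKM without logs from different times of day, so that rate does not apply to them. Hspa1b had 21.508 FPKM at ZT16 in ad libitum Bmal1LKO with the next library at 3.421, and 14.084 at ZT15 in restricted ReverbLDKO with the next at 6.619. In CryDKO it had 6.281 at ZT15 under restriction (next 2.99) and 4.303 at ZT15 under ad libitum feeding (next 2.023). Dnajb1 had 28.897 FPKM at ZT16 in ad libitum Bmal1LKO (next 14.942), Hsp90aa1 37.584 at ZT18 in restricted CryDKO (next 19.502) and Hsf1 6.417 at ZT15 in restricted ReverbLDKO (next 4.926). All 7 are high values at ZT15 to ZT18, and with 1 library per time a peak of that time and a library apart cannot be told apart.

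The effect of feeding differed between the 4 genotypes, by limma's test of that difference, for Hspb1 (adjusted p = 3.84e-05), Hspd1 (2.36e-05) and Hsf1 (6.03e-05).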

How the results depend on the processing

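Values here count members of 10 that passed, with the share of all genes that passed in the same fit in parentheses. A pseudocount of 0.1 left every count within 1.5 times. Fitting only the groups compared gave 3 for feeding in WT (52.9%), 2 for feeding in ReverbLDKO (23.9%), 1 for Bmal1LKO against WT (16.8%), and rhythms of 2 in restricted WT (0.613%), 1 in ad libitum WT (1.68%) and 0 in restricted CryDKO (0%). No filter gave 0 for feeding in ReverbLDKO (1.91%), 1 for Bmal1LKO against WT (13.6%), and rhythms of 3 in ad libitum WT (8.4%) and 3 in ad libitum Bmal1LKO (1.97%). The GC and length correction gave 0 for feeding in ReverbLDKO (5.2%) and 1 rhythm in ad libitum Bmal1LKO (0.282%). It turned Hspa1b for feeding in WT to 0.83 and Hsf1 in ReverbLDKO against WT to -0.16 (adjusted p = 0.0462, limma), and over all genes 3700 of 9581 passed for feeding in WT, against 6377 of 9957. Median-of-ratios scaling gave 1 rhythm that differed in ReverbLDKO from WT (2.72%). Leaving out both WT ZT16 replicate 2 libraries gave 1 rhythm in restricted (2.01%) and 1 in ad libitum Bmal1LKO (0.251%) and 1 that differed in ReverbLDKO (5.58%). The fit without the 8 libraries with pancreas markers has no WT library of ZT16. Without these 8 libraries there were 3 rhythms in ad libitum WT (30.7%), 1 in restricted Bmal1LKO (Hspe1, 2.36%), 1 in ad libitum Bmal1LKO (Hsp90ab1, 0.251%), and rhythms that differed from WT for 1 in Bmal1LKO (22.2%), 2 in CryDKO (26.2%) and 3 in ReverbLDKO (27.2%). The cause of these changes was not tested.

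In the fits that left out 1 library the share of all genes was not counted, so these ranges have no background beside them. Leaving out 1 library at a time gave 4 to 5 for feeding in WT, 0 to 1 for feeding in ReverbLDKO and 3 to 4 for feeding that differed between genotypes. Against WT it gave 1 to 3 in Bmal1LKO, 9 to 10 in CryDKO and 7 to 9 in ReverbLDKO. Rhythms ranged from 4 to 9 in restricted WT, 4 to 6 in ad libitum WT, 0 to 1 in ad libitum Bmal1LKO, 3 to 6 in restricted CryDKO and 3 to 6 in restricted ReverbLDKO. Rhythms that differed by feeding ranged from 0 to 1 in WT and in CryDKO, and those of ReverbLDKO against WT from 0 to 4.

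With a replicate block, feeding in WT gave 5 (64.4%), CryDKO against WT 8 (49.3%), ReverbLDKO against WT 6 (34.4%), the rhythm in ad libitum Bmal1LKO 1 (0.141%) and rhythms that differed in ReverbLDKO 2 (10.2%). The deviations of same-numbered WT libraries correlated at 0.398 (ZT4), 0.626 (ZT8), 0.609 (ZT16), 0.544 (ZT20) and -0.287 (ZT24), so 4 of 5 pairs deviated together and 1 did not. In restricted WT replicate 2 had the lower GC slope at 5 of 5 times. The labels name no batch behind the numbers and not every pair passed 0.1, so the fit without the block was kept.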

Other observations

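Cirbp, a cold-inducible RNA-binding protein gene known to fall as body temperature rises, ran opposite to the cytosolic chaperone genes. Its lowest mean lay after ZT12 in 8 of 8 groups. In restricted WT it averaged 4.81 FPKM at ZT8 and 1.14 at ZT20. Its rhythm passed limma under restriction in all 4 genotypes, with amplitudes of 1.22 ± 0.20 in Bmal1LKO (adjusted p = 0.00498), 1.11 ± 0.18 in CryDKO (0.000241), 0.86 ± 0.18 in ReverbLDKO (0.00621) and 0.80 ± 0.14 in WT (0.00048), and peaks at ZT7.8, ZT8.8, ZT8.2 and ZT5.2. It passed in no ad libitum group (0.38 in WT, adjusted p = 0.0878). The difference between feedings passed in no genotype, with an adjusted p of 0.073 in CryDKO and 0.603 in WT. Per2, a clock gene that HSF1 and the clock both act on in mouse liver, had amplitudes of 1.09 in restricted and 1.13 in ad libitum WT, and its rhythm differed from WT in Bmal1LKO (adjusted p = 0.0153, limma), CryDKO (0.000112) and ReverbLDKO (0.0244).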
